A study of Mus musculus with 18 samples.

Results

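The comparison set out here asks which genes differ in expression between mouse embryos without a working Dnmt3b allele and embryos that carry a Dnmt3b protein made to lack catalytic activity, both at E11.5. It covers 6 RNA-seq libraries of whole embryos, 3 labelled Dnmt3b -/- and 3 labelled Dnmt3b CI/CI, of 9 embryos sequenced for RNA and 18 samples in the series. The other 3 embryos were Dnmt3b +/+ and are given beside the results as the reference for the level in normal embryos. Each library came from a separate embryo of the FVB strain, without treatment, and the members of the comparison were the 18940 genes, of 34245 listed, that reached 0.1 FPKM in 3 or more of the 6 embryos. FPKM, the fragments of a gene scaled to its length and to the depth of the library, is the unit in which the authors deposited their values.

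The embryos labelled Dnmt3b -/- were homozygous for a null allele derived from mice in which Dnmt3b is flanked by loxP sites, and the sources used here do not say which exons are lacking. They are called null-labelled embryos below. The Dnmt3b CI/CI embryos, called CI/CI embryos below, were homozygous for an allele made with CRISPR/Cas9 in FVB zygotes, in which a proline and a cysteine in the catalytic centre were replaced by valine and aspartate at codons 656 and 657. Both kinds came from natural matings of Dnmt3b +/- and Dnmt3b +/CI mice, the CI allele was carried in 2 independent lines, and only live embryos with a beating heart and a supplied yolk sac were taken. Since every null-labelled embryo that was sequenced had survived to E11.5, the comparison describes survivors. The RNA came from whole embryos, so fewer cells of a type and less RNA per cell cannot be told apart in any result below.

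Dnmt3b is one of the enzymes that place methyl groups on cytosines of CpG dinucleotides when the embryo implants. It methylates, among other targets, the CpG-rich promoters of genes used only in germ cells, which are then silent in somatic tissue, and it also binds other chromatin proteins. A protein that is made but cannot transfer methyl groups separates these properties, and the comparison sets embryos labelled as carrying it beside embryos labelled as null for Dnmt3b.

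The allele is shown by the primers that tell its 2 forms apart, which lie in exon 19 of 24 of Dnmt3b. Capitals mark the bases at the changed codons that each primer reaches, and the positions are those of the forward strand of mm10, chr2:153677198-153677217 for the first primer and chr2:153677199-153677217 for the second.
Wild-type allele: gtgattggtggaagcCCATG
CI allele: tgattggtggaagcGTCGA
The CI primer differed from the reference at 5 bases, all within the codons for the exchanged residues.

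The libraries held 38451729 to 49808777 reads, and a gene without reads carries a small value worth 0.9 reads, so no value is 0. No 2 libraries held identical values. The targeted gene did not mark the genotype: Dnmt3b, summed over the whole gene, was at 2.45, 3.12 and 3.33 FPKM in null-labelled embryos, 2.06, 1.98 and 2.32 FPKM in CI/CI embryos and 2.25, 1.62 and 2.04 FPKM in Dnmt3b +/+ embryos. The Dnmt3b log2 difference was 0.46 (SE 0.13, adjusted p = 0.0434). The null-labelled embryos were above both other groups, although the difference from CI/CI embryos was less than 2-fold, and the loss of some exons need not show in a sum over the gene. By sex-linked genes, 1 CI/CI embryo (number 3) and 1 Dnmt3b +/+ embryo were female and the others male, so X-linked genes were compared between 3 males and a group with 1 female. The labelled tissue was whole embryo, and some embryos lacked the RNA of an organ: Cryaa, a lens crystallin, was at 0.0175 FPKM in CI/CI embryo 2, Alb, the hepatocyte albumin, was at 0.103 FPKM in Dnmt3b +/+ embryo 2, and Myl2, the ventricular myosin light chain, was under 0.1 FPKM in null-labelled embryo 1, CI/CI embryo 3 and 2 Dnmt3b +/+ embryos. Of 24 trophoblast and decidua genes 5 were high enough to be tested, and the list summed to 3.82 to 9.66 FPKM in null-labelled, 3.17 to 5.96 FPKM in CI/CI and 4.14 to 5.68 FPKM in Dnmt3b +/+ embryos. Its placental markers Prl3b1 and Tpbpa had at most 3 reads and none, while Tfap2c and Hand1, which the embryo itself also expresses, reached 4.57 and 3.95 FPKM.

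Most of the genes that separated the genotypes were lower in null-labelled embryos. On log2(FPKM + 0.1), with limma and Benjamini-Hochberg adjustment over all 18940 genes, 208 genes were higher and 914 lower in null-labelled than in CI/CI embryos at an adjusted p under 0.05 and a fold of at least 2, which is 1.1% and 4.83% of the genes tested and 5.92% together. These rules are meant wherever a gene is called higher or lower below, and log2 differences are null-labelled minus CI/CI on that scale, which understates the change of genes at low level. The median log2 difference was 1.37 for the higher genes, -1.26 for the lower genes and -0.07 for all genes. The 3 null-labelled embryos lay outside the range of the 3 CI/CI embryos for each of the 208 higher genes and for 913 of 914 lower ones. Among all genes tested, 17.0% had every null-labelled embryo above every CI/CI embryo and 29.7% had every one below. Under quantile normalization, which moved the median of all genes from -0.07 to 0.03, the counts were 332 higher and 545 lower, so that 37.9% of the calls were higher against 18.5% without it.

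**Figure D1:**
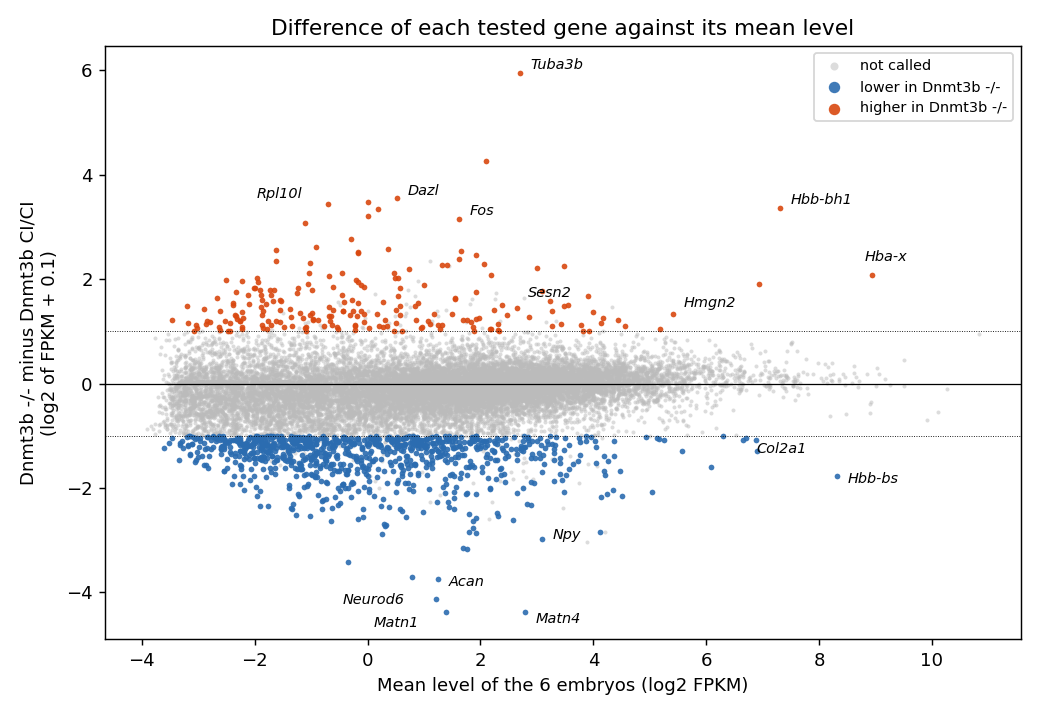
Each point is 1 of the 18940 tested genes, with its mean level in the 6 embryos (log2 FPKM) on the x axis and its log2 difference, null-labelled minus CI/CI, on the y axis. The 208 higher and 914 lower genes are coloured, and Tuba3b at 5.95 and Matn1 at -4.38 lie at the 2 ends.

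The null-labelled embryos were not alike in the genes that were lower. Embryo 1 lay nearest to the CI/CI mean in 687 of the 914 lower genes, embryo 2 in 167 and embryo 3 in 60, and their median log2 distances below that mean were -1.01, -1.38 and -1.56. In the higher genes the 3 embryos stood at nearly the same distance, 1.39, 1.44 and 1.45. Over all tested genes, null-labelled embryos 2 and 3 were 39.9 log2 units apart (Euclidean distance), embryo 1 was 61.5 and 66.6 from them, and CI/CI embryos were 40.4 to 50.1 from each other. Counts also moved with the embryos used, and the part of the smaller group size in this was not tested. Without null-labelled embryo 1 there were 267 higher and 1430 lower genes, and without embryo 3 there were 185 and 598. Without CI/CI embryo 1 the counts were 166 and 590, and without CI/CI embryo 3, the female, they were 163 and 613.

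**Figure D2:**
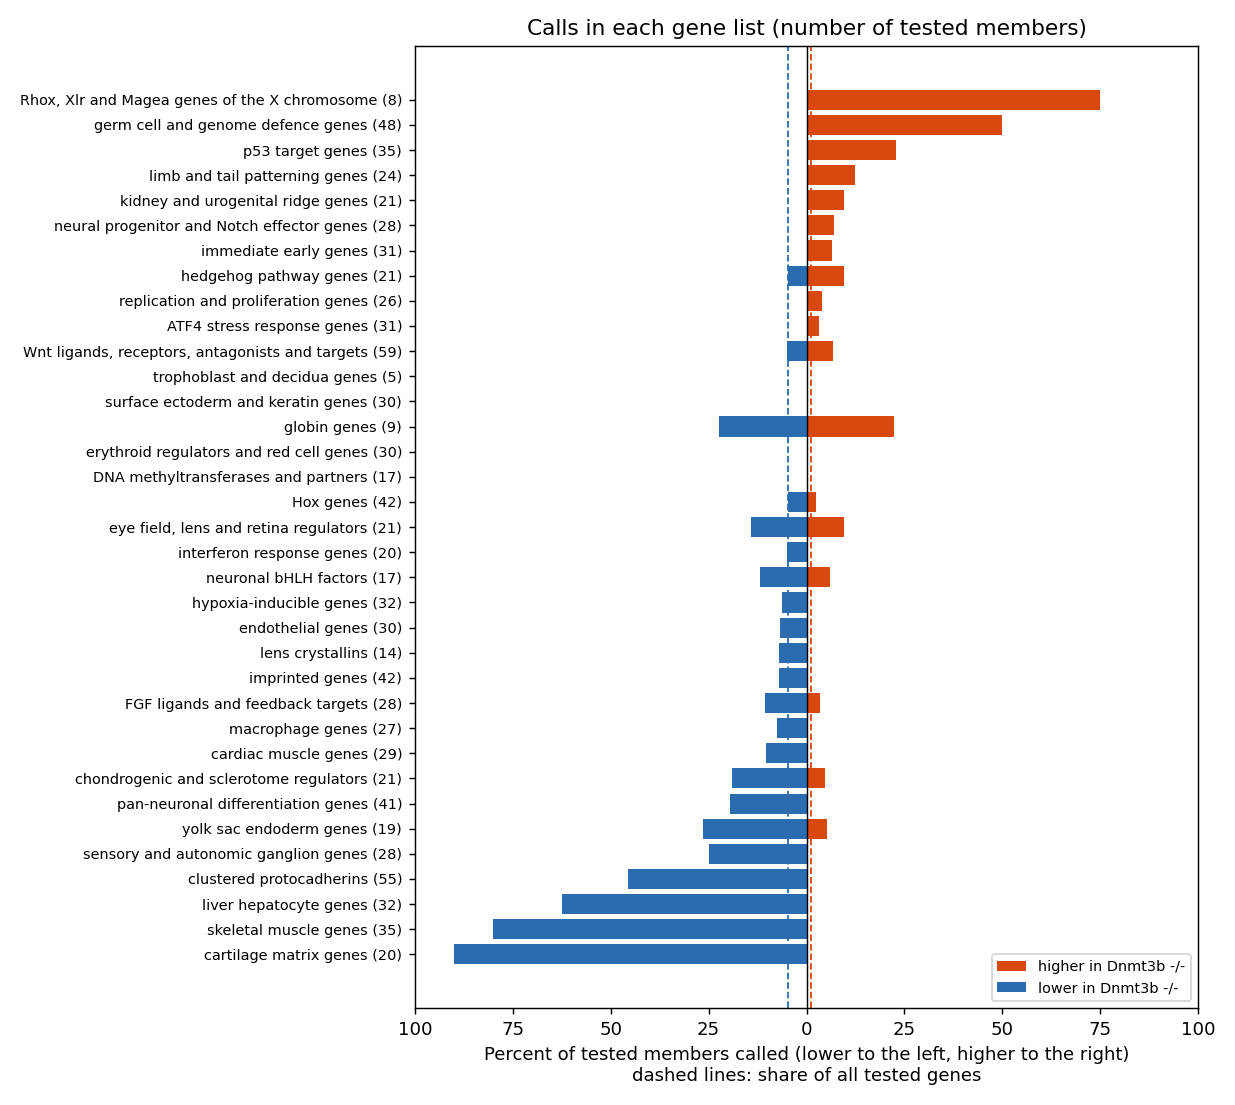
For each list of genes, bars show how many of its tested members were higher or lower in null-labelled than in CI/CI embryos, as a percentage of those tested, with dashed lines at the shares of all genes. Germ cell genes and Rhox and Xlr genes stand on the higher side, and cartilage, skeletal muscle and liver genes on the lower side, against 1.1% and 4.83% of all genes.

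Germ cell genes formed the largest group on the higher side, and the inactive protein was accompanied by much lower levels of them. Of 68 listed genes of meiosis, the piRNA pathway and germ cell identity, 48 were tested and 20 were too low to be tested. A gene can pass the minimum of 0.1 FPKM in 3 embryos through null-labelled embryos alone, so the counts describe these genes and are not offered as support. Of the 48, 24 were higher in null-labelled embryos, none was lower and the median log2 difference was 1.03, against 1.1% of all genes higher. In the 24 genes, the CI/CI mean was 0.836% to 35.6% of the null-labelled mean, with a median of 14.7%. The count was 24, 25 or 24 without CI/CI embryo 1, 2 or 3, and 24, 24 or 24 without null-labelled embryo 1, 2 or 3, and it was 12 with a pseudocount of 1 FPKM, on which scale low genes can hardly reach a fold of 2. The 3 null-labelled embryos also lay close together, at 1.35, 1.33 and 1.23 log2 units above the CI/CI mean of the list (the mean of log2(FPKM + 0.1) over its tested members, used for lists below too), while Dnmt3b +/+ embryos lay at -0.88, -0.91 and -0.85.

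Set beside Dnmt3b +/+ embryos, germ cell genes fell into 3 patterns. In 36 of the 48 genes every null-labelled embryo was above every Dnmt3b +/+ embryo. The share of all genes in that order was not counted, so the 36 and their split describe these genes only. Of these 36, CI/CI embryos overlapped the Dnmt3b +/+ range in 11, stood above it and below the null-labelled range in 21, and reached the null-labelled range or went above it in 4. For the 24 higher genes, all 3 CI/CI embryos were above all 3 Dnmt3b +/+ embryos in 17, against 7.71% of all genes tested. The CI/CI values enter both sides of this description, so it is not a separate test.

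**Figure D3:**
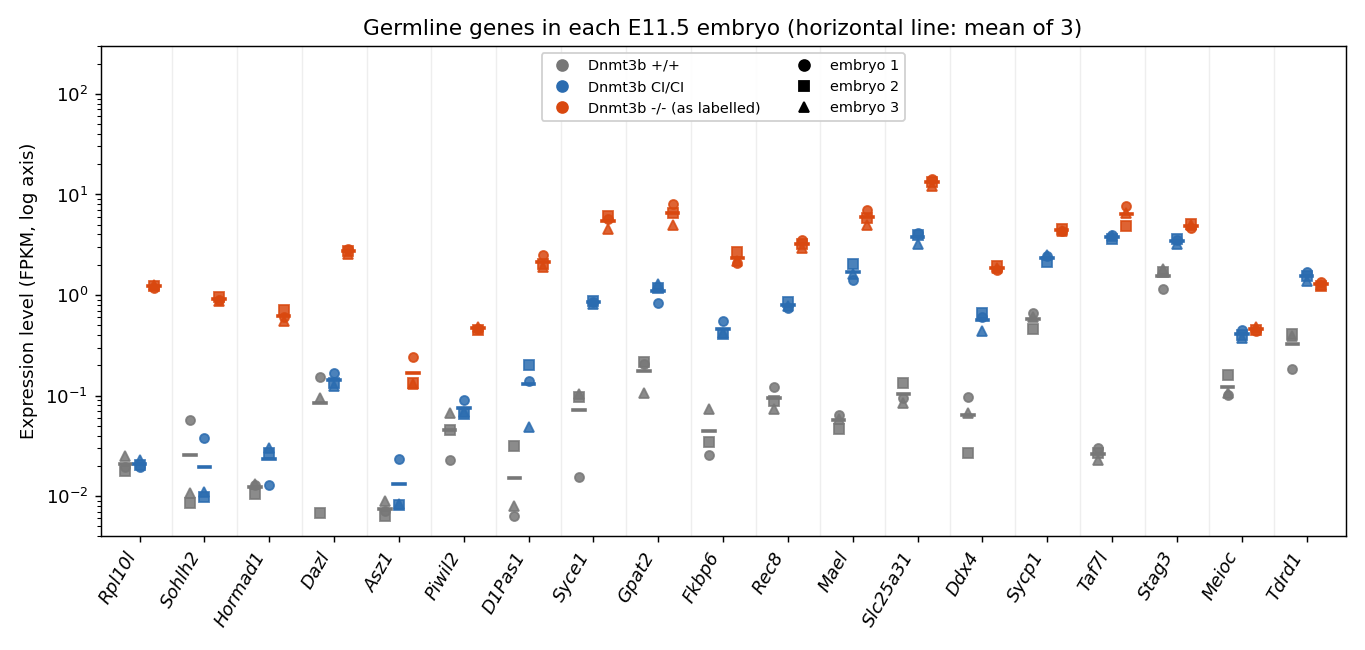
FPKM of germ cell genes on a log axis, with 1 point per embryo, a colour for each genotype and a line at the mean of 3 embryos. Null-labelled embryos are highest for Dazl and Slc25a31, CI/CI embryos lie near Dnmt3b +/+ embryos for Dazl, between the groups for Slc25a31 and near null-labelled embryos for Tdrd1.

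The promoters of 3 germ cell genes, with a low, an intermediate and a high level in CI/CI embryos, and of a cartilage gene are given because methylation of such promoters is the known work of Dnmt3b. The sequences are those of RefSeq on GRCm38.p6, 250 bases upstream of the gene's start and written along the gene's strand, with each CpG in capitals.
Dazl (chr17:50293621-50293870, minus strand): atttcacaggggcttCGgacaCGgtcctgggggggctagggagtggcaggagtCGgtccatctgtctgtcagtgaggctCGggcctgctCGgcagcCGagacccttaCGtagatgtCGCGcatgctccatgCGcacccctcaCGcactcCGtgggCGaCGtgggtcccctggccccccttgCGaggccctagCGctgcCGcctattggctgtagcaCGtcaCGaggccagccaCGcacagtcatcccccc
Slc25a31 (chr3:40708621-40708870, plus strand): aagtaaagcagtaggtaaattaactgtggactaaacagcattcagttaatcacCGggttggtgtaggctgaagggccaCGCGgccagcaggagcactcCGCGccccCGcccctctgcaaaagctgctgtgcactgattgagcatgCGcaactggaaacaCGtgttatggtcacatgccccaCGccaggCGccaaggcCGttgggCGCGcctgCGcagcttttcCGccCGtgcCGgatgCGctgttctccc
Taf7l (chrX:134476491-134476740, minus strand): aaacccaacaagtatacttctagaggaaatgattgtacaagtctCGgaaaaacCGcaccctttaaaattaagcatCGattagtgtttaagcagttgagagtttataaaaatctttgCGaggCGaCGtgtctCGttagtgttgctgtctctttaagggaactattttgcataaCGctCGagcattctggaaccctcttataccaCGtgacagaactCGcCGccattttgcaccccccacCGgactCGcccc
Matn1 (chr4:130944135-130944384, plus strand): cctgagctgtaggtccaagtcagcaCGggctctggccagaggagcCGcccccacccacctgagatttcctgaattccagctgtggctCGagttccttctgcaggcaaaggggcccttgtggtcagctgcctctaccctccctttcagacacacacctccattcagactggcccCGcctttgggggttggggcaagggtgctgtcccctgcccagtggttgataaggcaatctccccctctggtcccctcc
These windows hold 20 CpG in Dazl, 18 in Slc25a31, 14 in Taf7l and 4 in Matn1. Over windows of the same size at the annotated gene starts, the median was 12 CpG for the 24 higher germ cell genes, 12.5 for the germ cell genes that were not called, 8 for all higher genes, 6 for all lower genes and 11 for all genes tested. The medians of called and uncalled germ cell genes were thus close. The letters CACGTG, read on both strands, the E-box that the germline repressor Mga binds, occurred in 29.2% of the windows of called and of uncalled germ cell genes alike, in 7.28% of all windows, and in Slc25a31 and Taf7l of the promoters printed. TCCCGC, read on both strands, the core of an E2F6 site, occurred in 33.3% of the called, 37.5% of the uncalled and 24.6% of all windows. Both motifs contain a CpG, and a match is no more than these letters in the window.

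In the first pattern the ranges of CI/CI and Dnmt3b +/+ embryos overlapped, which does not show equal levels. The CI/CI mean of Mov10l1, an RNA helicase of the piRNA pathway, was 9.59% of the null-labelled mean and its Dnmt3b +/+ mean 3.84%. Dazl, an RNA-binding protein that germ cells need to form, was at 2.85, 2.74 and 2.56 FPKM in null-labelled embryos, 0.167, 0.133 and 0.124 FPKM in CI/CI embryos and 0.152, 0.00682 and 0.0953 FPKM in Dnmt3b +/+ embryos. The Dazl log2 difference was 3.55 (SE 0.12, adjusted p = 0.000105). All 3 null-labelled values were far above any other, and CI/CI and Dnmt3b +/+ embryos overlapped. Rpl10l, a ribosomal protein used in place of Rpl10 in spermatocytes, was at 1.18, 1.22 and 1.25 FPKM in null-labelled embryos, 0.0196, 0.0203 and 0.0229 FPKM in CI/CI embryos and 0.0197, 0.0177 and 0.0249 FPKM in Dnmt3b +/+ embryos. The Rpl10l log2 difference was 3.44 (SE 0.11, adjusted p = 0.000105). No CI/CI library held a read of it, and the null-labelled level was at least 17.4-fold higher, taking 3 reads per library as the smallest level that can be seen. Sohlh2, a bHLH factor of spermatogonia and early oocytes, was at 0.902, 0.955 and 0.866 FPKM in null-labelled embryos, 0.0377, 0.00977 and 0.011 FPKM in CI/CI embryos and 0.0568, 0.00849 and 0.0108 FPKM in Dnmt3b +/+ embryos. The Sohlh2 log2 difference was 3.08 (SE 0.14, adjusted p = 0.000352). Its CI/CI values rest on 4, 1 and 1 reads. Hormad1, which marks unsynapsed meiotic chromosomes, was at 0.609, 0.707 and 0.556 FPKM in null-labelled embryos and 0.0129, 0.0267 and 0.0301 FPKM in CI/CI embryos, at least 15.1-fold higher (log2 difference 2.55, adjusted p = 0.000638). Asz1, needed for piRNA production, was at 0.239, 0.133 and 0.131 FPKM in null-labelled embryos and 0.0236, 0.00817 and 0.00827 FPKM in CI/CI embryos, at least 6.65-fold higher (log2 difference 1.22, adjusted p = 0.00734). For Rpl10l, Hormad1 and Asz1 the fitted differences depend on the pseudocount, and the bounds are what the reads carry.

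Also in this pattern were Piwil2, the Piwi protein that binds primary piRNAs, and Mov10l1, a helicase of their biogenesis. Piwil2 was at 0.464, 0.45 and 0.482 FPKM in null-labelled embryos, 0.0907, 0.0658 and 0.0688 FPKM in CI/CI embryos and 0.0228, 0.045 and 0.0675 FPKM in Dnmt3b +/+ embryos. The Piwil2 log2 difference was 1.69 (SE 0.12, adjusted p = 0.00135). Mov10l1 was at 1.9, 1.25 and 1.3 FPKM in null-labelled embryos, 0.128, 0.243 and 0.056 FPKM in CI/CI embryos and 0.0321, 0.096 and 0.0427 FPKM in Dnmt3b +/+ embryos. The Mov10l1 log2 difference was 2.76 (SE 0.31, adjusted p = 0.00319). In both genes CI/CI embryos overlapped Dnmt3b +/+ embryos and lay far below null-labelled embryos.

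In the second pattern CI/CI embryos stood above Dnmt3b +/+ embryos and below null-labelled embryos. The CI/CI mean ran from 0.836% (Tuba3b) to 70.2% (Stag3) of the null-labelled mean. The largest difference in the whole comparison was in Tuba3b, a testis alpha-tubulin, at 11.2, 16.3 and 11.1 FPKM in null-labelled embryos, 0.0753, 0.13 and 0.117 FPKM in CI/CI embryos and 0.0252, 0.0113 and 0.0129 FPKM in Dnmt3b +/+ embryos. The Tuba3b log2 difference was 5.95 (SE 0.19, adjusted p = 0.000105). Its near copy Tuba3a was at 5.73, 10.7 and 8.33 FPKM in null-labelled embryos, 0.31, 0.49 and 0.207 FPKM in CI/CI embryos and 0.193, 0.0665 and 0.0676 FPKM in Dnmt3b +/+ embryos (log2 difference 4.27, SE 0.30, adjusted p = 0.00135), and how reads were divided between these 2 genes is uncertain. D1Pas1, a DEAD-box helicase of spermatogenesis copied from the X-linked Ddx3x, was at 2.48, 2.04 and 1.89 FPKM in null-labelled embryos, 0.139, 0.201 and 0.0486 FPKM in CI/CI embryos and 0.00628, 0.0313 and 0.00794 FPKM in Dnmt3b +/+ embryos. The D1Pas1 log2 difference was 3.34 (SE 0.27, adjusted p = 0.00165). CI/CI levels of D1Pas1 were a small share of null-labelled levels, and Dnmt3b +/+ embryos held 5 reads at most. Slc25a31, the adenine nucleotide carrier of sperm mitochondria, was at 14.2, 13.3 and 12.2 FPKM in null-labelled embryos, 4.14, 3.99 and 3.23 FPKM in CI/CI embryos and 0.0947, 0.132 and 0.0839 FPKM in Dnmt3b +/+ embryos. The Slc25a31 log2 difference was 1.78 (SE 0.11, adjusted p = 0.000938). Its CI/CI mean reached 28.7% of the null-labelled mean, and its Dnmt3b +/+ mean 0.784%.

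Several genes of the meiotic chromosome axis and of germ granules followed the same order. Syce1, of the central element of the synaptonemal complex, was at 5.75, 6.14 and 4.51 FPKM in null-labelled embryos, 0.854, 0.87 and 0.819 FPKM in CI/CI embryos and 0.0153, 0.0963 and 0.105 FPKM in Dnmt3b +/+ embryos. The Syce1 log2 difference was 2.54 (SE 0.13, adjusted p = 0.000457). Mael, which acts in transposon silencing, was at 6.93, 5.84 and 4.97 FPKM in null-labelled embryos, 1.4, 2.05 and 1.62 FPKM in CI/CI embryos and 0.0646, 0.0463 and 0.0588 FPKM in Dnmt3b +/+ embryos. The Mael log2 difference was 1.75 (SE 0.17, adjusted p = 0.00232). Ddx4, the germ cell helicase Vasa, was at 1.78, 1.94 and 1.87 FPKM in null-labelled embryos, 0.599, 0.667 and 0.44 FPKM in CI/CI embryos and 0.0966, 0.0266 and 0.0677 FPKM in Dnmt3b +/+ embryos (log2 difference 1.57, SE 0.15, adjusted p = 0.00222), and its CI/CI mean was 30.5% of the null-labelled mean. In each of these genes the 3 groups did not overlap. Higher by the same test were Gpat2, Tex19.1, Fkbp6, Stk31, Rec8, Tex101, Tex12, Tex11, Rnf17 and Hormad2, with log2 differences of 1.11 (Hormad2) to 2.46 (Gpat2) and the CI/CI group in the middle each time.

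Among the germ cell genes that were not called were several in which CI/CI embryos lay within a fold of 2 of null-labelled embryos on average or reached their range. Of these, Taf7l and Sycp1 belong to the second pattern. Taf7l, a germ cell subunit of the general transcription factor TFIID, was at 7.64, 4.87 and 6.49 FPKM in null-labelled embryos, 3.98, 3.58 and 3.88 FPKM in CI/CI embryos and 0.0299, 0.0268 and 0.0227 FPKM in Dnmt3b +/+ embryos. The Taf7l log2 difference was 0.70 (SE 0.16, adjusted p = 0.0218). The CI/CI mean of Taf7l was 60.2% and the Dnmt3b +/+ mean 0.418% of the null-labelled mean. Sycp1, the transverse filament of the synaptonemal complex, was at 4.36, 4.54 and 4.29 FPKM in null-labelled embryos, 2.42, 2.14 and 2.52 FPKM in CI/CI embryos and 0.655, 0.463 and 0.602 FPKM in Dnmt3b +/+ embryos. The Sycp1 log2 difference was 0.87 (SE 0.08, adjusted p = 0.00222). Tdrd1, a Tudor protein of germ granules, was at 1.34, 1.22 and 1.26 FPKM in null-labelled embryos, 1.69, 1.55 and 1.38 FPKM in CI/CI embryos and 0.185, 0.406 and 0.389 FPKM in Dnmt3b +/+ embryos. The Tdrd1 log2 difference was -0.25 (SE 0.11, adjusted p = 0.119). Its CI/CI embryos all lay above the null-labelled embryos, with a mean of 121% of theirs, and both groups were clear of Dnmt3b +/+ embryos. Meioc, needed for prolonged meiotic prophase, was at 0.44, 0.448 and 0.481 FPKM in null-labelled embryos, 0.454, 0.4 and 0.377 FPKM in CI/CI embryos and 0.102, 0.161 and 0.105 FPKM in Dnmt3b +/+ embryos (log2 difference 0.13, SE 0.12, adjusted p = 0.444), and here CI/CI embryos overlapped null-labelled embryos and not Dnmt3b +/+ embryos.

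The study sorted promoters that lose methylation in null embryos into groups by expression and chromatin, and the group that is low in normal embryos and rises in null embryos was chosen on these same samples. Of its 34 genes 30 were tested, 20 were higher in null-labelled than in CI/CI embryos, against 1.1% of all genes, and none was lower, with a median log2 difference of 1.22. The median CI/CI level was 26.1% of the null-labelled level, and all 3 CI/CI embryos were above all 3 Dnmt3b +/+ embryos in 18 of the 30, against 7.71% of all genes. Since the null-labelled embryos entered the choice of the group, its direction is not independent evidence. In the other 2 promoter groups, 4 of 148 and 4 of 65 tested genes were lower, near the 4.83% of all genes, and none was higher. The study chose these 2 groups as unchanged in null embryos of these same samples, so their counts are not independent evidence either.

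X-linked reproductive homeobox and lymphocyte-regulated genes moved in the same direction. Of 51 listed Rhox, Xlr and Magea genes, 8 were tested and 43 were too low to be tested. Of the 8, 6 were higher in null-labelled embryos, against 1.1% of all genes, and the median log2 difference was 1.62. As with germ cell genes, a gene can pass the minimum through null-labelled embryos alone, so this is a description. Rhox6, a homeobox gene of placenta and germ cells, was at 0.298, 0.606 and 0.44 FPKM in null-labelled embryos, 0.0221, 0.0206 and 0.129 FPKM in CI/CI embryos and 0.0887, 0.0179 and 0.0227 FPKM in Dnmt3b +/+ embryos. The Rhox6 log2 difference was 1.83 (SE 0.32, adjusted p = 0.0102). Xlr4b was at 2.62, 2.03 and 2.26 FPKM in null-labelled embryos, 0.644, 0.487 and 0.376 FPKM in CI/CI embryos and 0.0787, 0.22 and 0.0697 FPKM in Dnmt3b +/+ embryos. The Xlr4b log2 difference was 2.01 (SE 0.19, adjusted p = 0.00211). The 6 genes are Rhox6, Xlr3a, Xlr3c, Xlr4a, Xlr4b and Xlr4c, and the Xlr3 and Xlr4 copies are near-identical, so that reads may have been split among them. Gm9, also on the X chromosome, was at 2.15, 1.79 and 1.87 FPKM in null-labelled embryos, 0.0273, 0.141 and 0.0955 FPKM in CI/CI embryos and 0.0247, 0.0221 and 0.0281 FPKM in Dnmt3b +/+ embryos. The Gm9 log2 difference was 3.48 (SE 0.24, adjusted p = 0.00126). X-linked genes made up 23 of the 208 higher genes (11.1%), 30 of the 914 lower genes (3.28%) and 595 of all genes tested (3.14%). Without CI/CI embryo 3, the female, 6 genes of the list were higher as well.

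A smaller set of p53 target genes was higher in null-labelled embryos. Of 35 tested targets 8 were higher, against 1.1% of all genes, and none was lower, with a median log2 difference of 0.49 and 31 of 35 differences above 0. Eda2r, a receptor of the TNF family, was at 1.37, 1.65 and 1.77 FPKM in null-labelled embryos, 0.231, 0.224 and 0.137 FPKM in CI/CI embryos and 0.167, 0.143 and 0.138 FPKM in Dnmt3b +/+ embryos. The Eda2r log2 difference was 2.52 (SE 0.18, adjusted p = 0.00126). Pmaip1, which encodes the apoptosis trigger Noxa, was at 3.34, 6.14 and 6.31 FPKM in null-labelled embryos, 0.859, 0.882 and 0.914 FPKM in CI/CI embryos and 0.889, 0.599 and 0.559 FPKM in Dnmt3b +/+ embryos. The Pmaip1 log2 difference was 2.39 (SE 0.24, adjusted p = 0.0025). CI/CI and Dnmt3b +/+ embryos overlapped in Pmaip1, and all null-labelled embryos were above both. The other 6 were Psrc1, a microtubule regulator, Ccng1, cyclin G1, Sesn2, a stress-induced sestrin, Dcxr, a sugar reductase, Gtse1, a regulator of p53 in G2 phase, and Phlda3, an inhibitor of Akt, with log2 differences of 1.01 to 1.50. Cdkn1a, the p21 inhibitor of cyclin-dependent kinases, was at 19.5, 16.6 and 15.2 FPKM in null-labelled embryos and 9.24, 11.4 and 9.86 FPKM in CI/CI embryos (log2 difference 0.74, SE 0.12, adjusted p = 0.00754) and did not reach a fold of 2. Mdm2, the negative regulator of p53, was at 6.94, 7.14 and 7.43 FPKM in null-labelled embryos and 6.13, 6.45 and 6.15 FPKM in CI/CI embryos. The Mdm2 log2 difference was 0.20 (SE 0.06, adjusted p = 0.0442). Without the fold threshold, 20 of the 35 targets passed upwards and 1, Sesn1, downwards, at -0.59, against 9.43% and 18.5% of all genes. The count of 8 was 7, 9 or 8 without CI/CI embryo 1, 2 or 3, and 7, 8 or 8 without null-labelled embryo 1, 2 or 3.

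Of 30 tested immediate early genes, with Junb in 2 rows of the table, 2 were higher, Fos and its relative Fosb, against 1.1% of all genes. Fos, a subunit of the AP-1 transcription factor, was at 3.25, 5.29 and 8.39 FPKM in null-labelled embryos, 0.502, 0.56 and 0.442 FPKM in CI/CI embryos and 0.324, 0.563 and 0.325 FPKM in Dnmt3b +/+ embryos. The Fos log2 difference was 3.16 (SE 0.32, adjusted p = 0.0025). Fosb was at 0.329, 2.3 and 3.21 FPKM in null-labelled embryos and 0.0607, 0.0592 and 0.0667 FPKM in CI/CI embryos (log2 difference 3.22, SE 0.72, adjusted p = 0.0206), with null-labelled embryo 1 nearest to CI/CI embryos in both genes. The Fosb call was lost without null-labelled embryo 2 or 3 or CI/CI embryo 1, 2 or 3 (adjusted p = 0.0553 to 0.0719). Of 31 ATF4 stress genes 1 was higher, Sesn2, which is also in the p53 list, and of 32 hypoxia-inducible genes 2, Ndrg1 and Ppp1r3c, were lower, near the 4.83% of all genes, and none was higher. The median of the hypoxia list was 0.25, with 22 of 32 differences above 0, and without the fold threshold 9 passed upwards and 3 downwards, against 9.43% and 18.5% of all genes. Ndrg1 was lost without null-labelled embryo 1 or CI/CI embryo 1 (log2 difference -0.99997 to -0.99) and Ppp1r3c without null-labelled embryo 1 or CI/CI embryo 1 (log2 difference -0.92 to -0.89).

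Genes of replication and division showed small differences in a single direction, with a median log2 difference of 0.58. All 26 tested differences were above 0 and 21 had an adjusted p under 0.05, against 9.43% of all genes passing upwards by this rule. Rrm2, the small subunit of ribonucleotide reductase, alone passed the fold of 2. Rrm2 was at 37.5, 54.7 and 55.6 FPKM in null-labelled embryos and 23.9, 22.1 and 24.6 FPKM in CI/CI embryos (log2 difference 1.04, SE 0.15, adjusted p = 0.00666), and that call was lost without null-labelled embryo 2 or 3 or CI/CI embryo 2 (log2 difference 0.94 to 0.997). Among DNA methyltransferases and their partners none of 17 was higher or lower. Uhrf1, which brings the maintenance enzyme to newly copied DNA, was at 42.5, 52.7 and 51.7 FPKM in null-labelled embryos and 27.3, 26.2 and 27.6 FPKM in CI/CI embryos (log2 difference 0.85, SE 0.09, adjusted p = 0.00292), under the fold threshold with no overlap of the groups. Dnmt1 was at 30.4, 34.4 and 34 FPKM in null-labelled embryos and 24.5, 22.7 and 24.3 FPKM in CI/CI embryos (log2 difference 0.46, adjusted p = 0.0067), and Dnmt3a was at 13.5, 12 and 11.9 FPKM in null-labelled embryos and 15.7, 16.8 and 14.7 FPKM in CI/CI embryos (log2 difference -0.33, adjusted p = 0.0221). Dnmt3l, the cofactor without activity of its own, held 3, 1 and 3 reads in null-labelled embryos and none in CI/CI embryos.

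Of 9 tested globin genes 2 embryonic ones were higher and 2 adult beta globins lower in null-labelled embryos, and 5 were not called, beside 1.1% of all genes higher and 4.83% lower. Hbb-bh1, the earliest beta-like globin of primitive red cells, was at 113, 501 and 265 FPKM in null-labelled embryos, 25.1, 26.8 and 20.2 FPKM in CI/CI embryos and 26.9, 46.1 and 23.3 FPKM in Dnmt3b +/+ embryos. The Hbb-bh1 log2 difference was 3.37 (SE 0.49, adjusted p = 0.00648). Hba-x, the embryonic zeta globin, was at 376, 1347 and 713 FPKM in null-labelled embryos, 181, 157 and 172 FPKM in CI/CI embryos and 153, 310.3 and 184 FPKM in Dnmt3b +/+ embryos (log2 difference 2.07, SE 0.42, adjusted p = 0.0159), and its call was lost without CI/CI embryo 1, 2 or 3 (adjusted p = 0.0553 to 0.0617). In both genes every null-labelled embryo was above every other embryo and embryo 2 was the highest. Hbb-y, the other embryonic beta-like globin, was at 1278, 3825 and 2295 FPKM in null-labelled embryos and 1345, 944 and 1242 FPKM in CI/CI embryos (log2 difference 0.94, SE 0.40, adjusted p = 0.125) and was not called. Hbb-bs, the adult beta globin of definitive red cells, was at 104, 236 and 117 FPKM in null-labelled embryos, 469.6, 469 and 510.5 FPKM in CI/CI embryos and 711, 100.4 and 351 FPKM in Dnmt3b +/+ embryos (log2 difference -1.76, SE 0.30, adjusted p = 0.0093), and its near copy Hbb-bt was at 27.9, 44.4 and 29.8 FPKM in null-labelled embryos, 85.9, 106 and 114 FPKM in CI/CI embryos and 144, 22.4 and 106 FPKM in Dnmt3b +/+ embryos. The Hbb-bt log2 difference was -1.60 (SE 0.19, adjusted p = 0.0041). Dnmt3b +/+ embryo 2, which was almost without liver RNA, was below the null-labelled range in both. With all 9 embryos in 1 model the adjusted p was 0.0633 for Hbb-bs and 0.0728 for Hbb-bt, so that neither was called. Reads may have been split between these adult copies. None of 30 erythroid regulators and red cell genes was higher or lower, and their median log2 difference was -0.35. In this list 27 of 30 differences were below 0, and 3 genes were lower without null-labelled embryo 2.

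**Figure D4:**
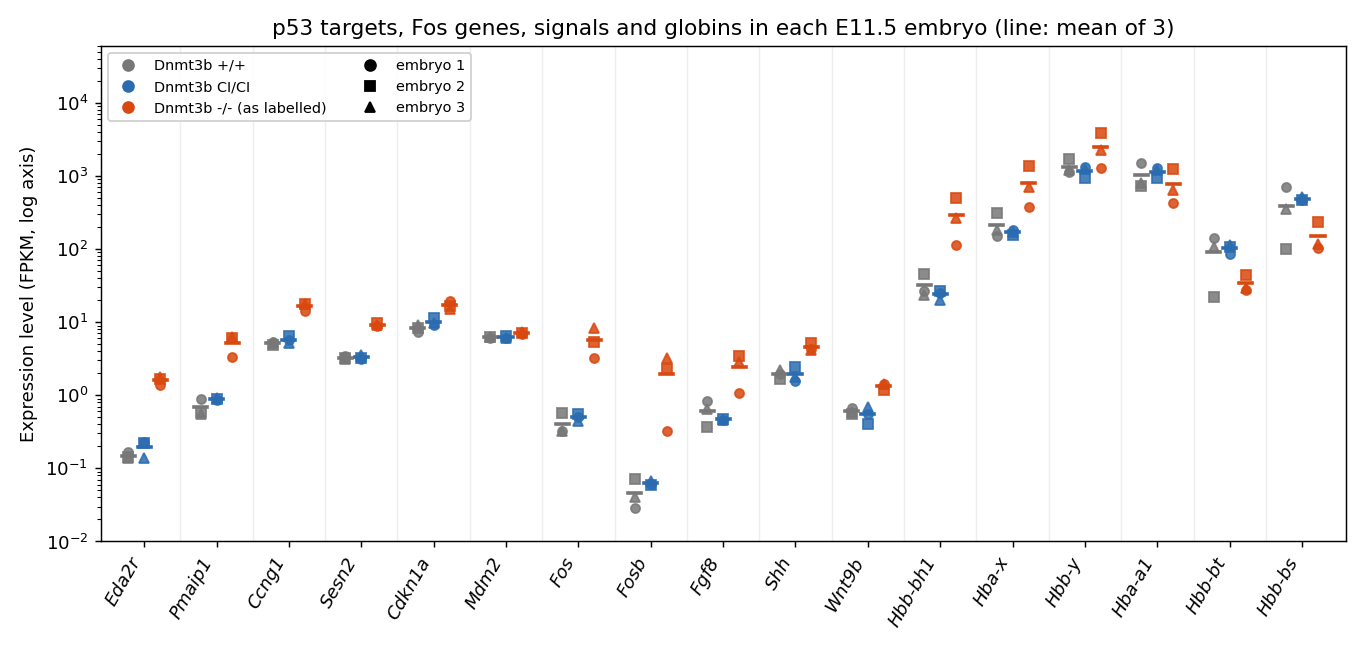
FPKM on a log axis for p53 targets, Fos, signalling genes and globins, with 1 point per embryo, a colour for each genotype and a line at the mean of 3 embryos. Hbb-bh1 is at 113 to 501 FPKM in null-labelled embryos and at 20.2 to 26.8 FPKM in CI/CI embryos, and Hbb-bs has the opposite order.

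Secreted signals and regional transcription factors of the early embryo were also among the higher genes, in small numbers per pathway. Shh, the hedgehog ligand of notochord, floor plate and limb, was at 4.29, 5.14 and 4.22 FPKM in null-labelled embryos, 1.56, 2.47 and 1.77 FPKM in CI/CI embryos and 1.97, 1.66 and 2.22 FPKM in Dnmt3b +/+ embryos. The Shh log2 difference was 1.21 (SE 0.17, adjusted p = 0.006). Fgf8, a ligand of the limb ridge and the midbrain-hindbrain border, was at 1.06, 3.43 and 2.85 FPKM in null-labelled embryos, 0.462, 0.479 and 0.462 FPKM in CI/CI embryos and 0.83, 0.372 and 0.642 FPKM in Dnmt3b +/+ embryos. The Fgf8 log2 difference was 2.01 (SE 0.40, adjusted p = 0.0144). The Fgf8 call was lost without CI/CI embryo 1 or 3 (adjusted p = 0.0562 to 0.0578). Wnt9b, a ligand of the kidney duct and face, was at 1.44, 1.19 and 1.44 FPKM in null-labelled embryos, 0.547, 0.409 and 0.697 FPKM in CI/CI embryos and 0.679, 0.551 and 0.581 FPKM in Dnmt3b +/+ embryos. The Wnt9b log2 difference was 1.18 (SE 0.18, adjusted p = 0.00754). Of the tested members of these pathways, 2 of 21 hedgehog genes, 1 of 28 FGF genes and 4 of 59 Wnt genes were higher, against 1.1% of all genes, and 1, 3 and 3 were lower, against 4.83%. The lower Wnt genes were Sfrp5, a secreted antagonist, Kremen2, a receptor of Dkk antagonists, and the ligand Wnt11. Sfrp5 was at 0.501, 0.557 and 0.195 FPKM in null-labelled embryos, 2.95, 2.65 and 2.75 FPKM in CI/CI embryos and 1.65, 2.65 and 2.91 FPKM in Dnmt3b +/+ embryos. The Sfrp5 log2 difference was -2.56 (SE 0.30, adjusted p = 0.00361). The log2 differences of Kremen2 and Wnt11 were -1.13 and -1.07. The Wnt11 call was lost without null-labelled embryo 2 or 3 or CI/CI embryo 1, 2 or 3 (adjusted p = 0.068 to 0.0964). The lower hedgehog gene was Ihh and the lower FGF genes were the ligands Fgf7 and Fgf18 and the intracellular Fgf12, with log2 differences of -1.27, -1.25 and -1.11. The Fgf12 call was lost without null-labelled embryo 2 or 3 or CI/CI embryo 1, 2 or 3 (adjusted p = 0.0785 to 0.107). Rspo2 and Frzb, modulators of Wnt signalling, were among the higher genes, but Rspo2 was lost without null-labelled embryo 3 or CI/CI embryo 2 or 3 (adjusted p = 0.052 to 0.0523 or log2 difference 0.89) and Frzb without null-labelled embryo 2 or 3 or CI/CI embryo 1, 2 or 3 (adjusted p = 0.0909 to 0.113). Rspo2 was at 2.41, 3.08 and 4.44 FPKM in null-labelled embryos and 1.55, 1.22 and 1.53 FPKM in CI/CI embryos. Dnmt3b +/+ embryos held 2.47, 1.9 and 2.79 FPKM of Rspo2, overlapping null-labelled embryos and above every CI/CI embryo.

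In 39 of the 208 higher genes (18.8%) all 3 CI/CI embryos were below all 3 Dnmt3b +/+ embryos, against 5.51% of all genes tested. Otx2, Sox1, Sox3, Lhx9, Nkx2-2, Lmx1a, Dbx1 and Wnt8b, which act in the brain and neural tube, were among these 39, and they were picked after their values were seen, with no list or test behind the choice. Otx2, which specifies forebrain and midbrain, was at 5.02, 2.67 and 5.83 FPKM in null-labelled embryos, 0.715, 0.714 and 1.05 FPKM in CI/CI embryos and 2.51, 4.44 and 1.99 FPKM in Dnmt3b +/+ embryos. The Otx2 log2 difference was 2.26 (SE 0.30, adjusted p = 0.00504). Sox3, a factor of neural progenitors, was at 23.4, 19.9 and 23.9 FPKM in null-labelled embryos, 6.98, 4.21 and 11.2 FPKM in CI/CI embryos and 13.6, 20.6 and 14.5 FPKM in Dnmt3b +/+ embryos. The Sox3 log2 difference was 1.68 (SE 0.32, adjusted p = 0.0136). Wnt8b, a ligand of the dorsal forebrain, was at 1.2, 1.8 and 3.7 FPKM in null-labelled embryos, 0.244, 0.0479 and 0.755 FPKM in CI/CI embryos and 1.79, 1.3 and 1.33 FPKM in Dnmt3b +/+ embryos. The Wnt8b log2 difference was 2.58 (SE 0.67, adjusted p = 0.0328). In Otx2, Sox3 and Wnt8b the lowest values were those of CI/CI embryos. CI/CI embryo 2, which was almost without lens RNA (lens list -2.01 and eye regulators -0.65 log2 units from the CI/CI mean), was also the lowest embryo in Sox1, Sox3 and Wnt8b, and the part of this in the result was not tested. The call of Sox3 was lost without CI/CI embryo 1 (adjusted p = 0.0532), that of Sox1 without CI/CI embryo 1 (adjusted p = 0.0532), that of Wnt8b without null-labelled embryo 2 or 3 or CI/CI embryo 1 or 2 (adjusted p = 0.0739 to 0.0967) and that of Lhx9 without null-labelled embryo 2 or 3 or CI/CI embryo 1 or 3 (log2 difference 0.94 to 0.999). In the list of neural progenitor and Notch genes 2 of 28 were higher, Sox1 and Sox3, against 1.1% of all genes, with a median log2 difference of 0.45.

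Cartilage matrix genes had the largest share of lower members among the lists described here. Of 20 tested, 18 were lower in null-labelled embryos, none was higher and the median log2 difference was -1.91, or -2.05 with 1 gene that null-labelled embryos held at the floor set at its bound, against 4.83% of all genes lower. Matn1, a matrilin of growing cartilage, was at 0.251, 0.129 and 0.0863 FPKM in null-labelled embryos, 4.9, 4.58 and 5.69 FPKM in CI/CI embryos and 2.47, 4.16 and 4.65 FPKM in Dnmt3b +/+ embryos. The Matn1 log2 difference was -4.38 (SE 0.24, adjusted p = 0.000638). Matn4 was at 1.16, 0.396 and 0.319 FPKM in null-labelled embryos, 13.7, 12.6 and 13.1 FPKM in CI/CI embryos and 10, 12.5 and 14.1 FPKM in Dnmt3b +/+ embryos. The Matn4 log2 difference was -4.37 (SE 0.39, adjusted p = 0.00197). Acan, the main proteoglycan of cartilage, was at 0.608, 0.192 and 0.0892 FPKM in null-labelled embryos, 4.51, 4.23 and 4.54 FPKM in CI/CI embryos and 2.18, 3.9 and 4.07 FPKM in Dnmt3b +/+ embryos. The Acan log2 difference was -3.74 (SE 0.44, adjusted p = 0.00378). CI/CI and Dnmt3b +/+ embryos overlapped or lay close together in these genes, and all null-labelled embryos were far below. Col2a1, the main collagen of cartilage, was at 90.6, 62.5 and 53.2 FPKM in null-labelled embryos, 134, 138 and 145 FPKM in CI/CI embryos and 88.4, 122 and 140.3 FPKM in Dnmt3b +/+ embryos (log2 difference -1.05, SE 0.19, adjusted p = 0.0107), and its call was lost without null-labelled embryo 3 (log2 difference -0.88). The smaller collagens Col9a3, Col11a2 and Col9a2, the chondromodulin Cnmd and the secreted protein Cytl1 were lower as well, with log2 differences of -2.86 for Cnmd, -2.85 for Col9a3, -2.74 for Cytl1, -2.30 for Col11a2 and -2.16 for Col9a2. The count of 18 was 17, 18 or 17 without CI/CI embryo 1, 2 or 3, and 18, 17 or 15 without null-labelled embryo 1, 2 or 3.

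Of 21 chondrogenic and sclerotome regulators 4 were lower, Ihh, Gdf5, Runx3 and Sp7, 1 was higher, Barx1, beside 4.83% and 1.1% of all genes, and 16 were not called. Their median log2 difference was -0.44. The count of 4 was 3, 3 or 2 without CI/CI embryo 1, 2 or 3. It was 6, 3 or 3 without null-labelled embryo 1, 2 or 3. Sox9, the factor that specifies cartilage, was at 24.1, 22 and 18.6 FPKM in null-labelled embryos and 25, 26.1 and 26.9 FPKM in CI/CI embryos. The Sox9 log2 difference was -0.27 (SE 0.10, adjusted p = 0.08). Ihh, the hedgehog ligand of growth plates, was at 0.247, 0.262 and 0.105 FPKM in null-labelled embryos and 0.811, 0.826 and 0.93 FPKM in CI/CI embryos. The Ihh log2 difference was -1.69 (SE 0.23, adjusted p = 0.00548). The Runx3 call (log2 difference -1.57) was lost without null-labelled embryo 2 or 3 or CI/CI embryo 1, 2 or 3 (adjusted p = 0.0903 to 0.123), and that of Sp7 (-1.11) without CI/CI embryo 3 (log2 difference -0.95). Outside the list, Aspn, a small proteoglycan of joints and periosteum, was at 0.107, 0.00999 and 0.0419 FPKM in null-labelled embryos and 1.75, 1.07 and 1.76 FPKM in CI/CI embryos (log2 difference -3.43, SE 0.29, adjusted p = 0.0017), and the sushi domain protein Susd5 was at 0.381, 0.138 and 0.0483 FPKM in null-labelled embryos and 3.03, 3.17 and 3.54 FPKM in CI/CI embryos. The Susd5 log2 difference was -3.70 (SE 0.40, adjusted p = 0.00291). The widely expressed collagens Col1a1 (-1.30) and Col3a1 (-1.01) were lower, with CI/CI means 2.47 and 2.01 times the null-labelled means, and Col3a1 was lost without null-labelled embryo 2 or CI/CI embryo 1 (log2 difference -0.96 to -0.94).

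Skeletal muscle genes were lower and cardiac muscle genes mostly were not. Of 35 tested skeletal muscle genes 28 were lower, against 4.83% of all genes, none was higher and the median log2 difference was -1.68. Myh3, the embryonic myosin heavy chain, was at 14.2, 4.38 and 5.04 FPKM in null-labelled embryos, 31.4, 28.4 and 29.9 FPKM in CI/CI embryos and 18.1, 23.6 and 28.3 FPKM in Dnmt3b +/+ embryos. The Myh3 log2 difference was -2.12 (SE 0.41, adjusted p = 0.014). Tnnt3, the troponin T of fast muscle, was at 1.62, 0.728 and 0.748 FPKM in null-labelled embryos, 4.8, 4.52 and 4.96 FPKM in CI/CI embryos and 2.79, 4.12 and 4.17 FPKM in Dnmt3b +/+ embryos. The Tnnt3 log2 difference was -2.19 (SE 0.28, adjusted p = 0.00444). Of the lineage factors, Myod1 and Myog were lower. Myod1 was at 7.63, 2.55 and 2.98 FPKM in null-labelled embryos and 13.2, 11.8 and 13.3 FPKM in CI/CI embryos (log2 difference -1.69, SE 0.38, adjusted p = 0.0211), and Myog was at 17.2, 5.76 and 5.87 FPKM in null-labelled embryos and 25.6, 29.4 and 26 FPKM in CI/CI embryos. The Myog log2 difference was -1.68 (SE 0.41, adjusted p = 0.0266). The other lineage factors in the list were not called, with log2 differences of -0.50 for Myf5, 0.26 for Pax7 and 0.51 for Pax3. Null-labelled embryo 1 was the highest of its group in Myh3, Myod1 and Myog, and the list stood at -0.94, -1.70 and -1.77 log2 units from the CI/CI mean in null-labelled embryos 1, 2 and 3. The Myh3 call was lost without CI/CI embryo 1 or 3 (adjusted p = 0.0566 to 0.0568). The count of 28 was 19, 23 or 21 without CI/CI embryo 1, 2 or 3, and 27, 25 or 24 without null-labelled embryo 1, 2 or 3.

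Of 29 tested cardiac muscle genes 3 were lower, Casq2, Actn2 and Tnnc1, against 4.83% of all genes, with a median log2 difference of -0.04. The count of 3 was 3, 3 or 4 without CI/CI embryo 1, 2 or 3. It was 4, 5 or 3 without null-labelled embryo 1, 2 or 3. The libraries did not all hold heart RNA, as Myl2 was at 0.0386, 11.3 and 8.45 FPKM in null-labelled embryos, 11.3, 13.1 and 0.0934 FPKM in CI/CI embryos and 0.0115, 14.5 and 0.0654 FPKM in Dnmt3b +/+ embryos, and the part of this in the cardiac result was not tested. Actn2 and Tnnc1 are also expressed in skeletal muscle. Casq2 was still at 1.45 FPKM in null-labelled embryo 1 and 3.41 FPKM in CI/CI embryo 3, which were almost without Myl2. In Dnmt3b +/+ embryos 1 and 3, also almost without Myl2, Casq2 was at 2.25 and 3.4 FPKM. Actn2 was at 4.51, 6.77 and 5.58 FPKM in null-labelled embryos and 16.5, 13.6 and 12.2 FPKM in CI/CI embryos. The Actn2 log2 difference was -1.32 (SE 0.17, adjusted p = 0.00459).

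**Figure D5:**
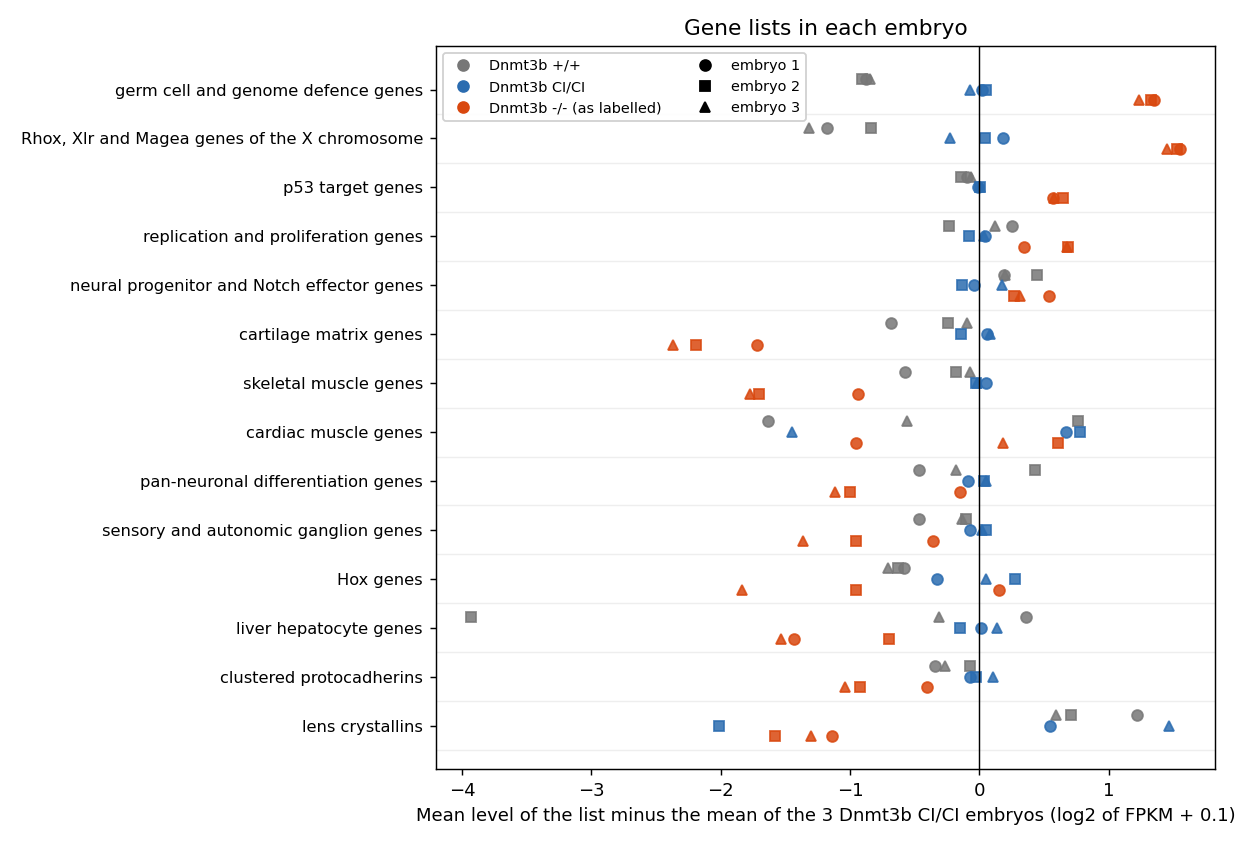
The x axis gives the mean of log2(FPKM + 0.1) over the tested members of a list, minus the mean of the 3 CI/CI embryos, with 1 point per embryo, a colour for each genotype and a symbol for each embryo number. Null-labelled embryos 2 and 3 lie to the left of embryo 1 in the neuronal, ganglion and Hox lists, while all 3 lie together in the germ cell list at 1.23 to 1.35.

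Neuronal genes were lower in part, and more so in 2 of the 3 null-labelled embryos. Neurod6 and Neurod2, bHLH factors of young forebrain neurons, were lower, and of 17 neuronal bHLH factors no other was, beside 4.83% of all genes. Neurod6 was at 0.408, 0.0547 and 0.115 FPKM in null-labelled embryos, 4.72, 3.19 and 5.48 FPKM in CI/CI embryos and 3.1, 6.08 and 3.42 FPKM in Dnmt3b +/+ embryos. The Neurod6 log2 difference was -4.12 (SE 0.44, adjusted p = 0.00292). Neurod2 was at 1.14, 0.329 and 0.502 FPKM in null-labelled embryos, 6.29, 5 and 7.13 FPKM in CI/CI embryos and 4.78, 10.4 and 5.49 FPKM in Dnmt3b +/+ embryos. The Neurod2 log2 difference was -3.17 (SE 0.38, adjusted p = 0.00374). Npy, a neuropeptide, was at 2.92, 1.79 and 1.13 FPKM in null-labelled embryos and 14.7, 12.9 and 17.7 FPKM in CI/CI embryos. The Npy log2 difference was -2.98 (SE 0.31, adjusted p = 0.00279). In these 3 genes all null-labelled embryos were below all CI/CI embryos. Tal2, a bHLH factor of midbrain neurons, was higher at 2.50, the only 1 of the 17 beside 1.1% of all genes, a call lost without null-labelled embryo 1 or 3 or CI/CI embryo 1 or 3 (adjusted p = 0.0572 to 0.132), and its adjusted p with all 9 embryos in 1 model was 0.0634.

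Among 41 tested pan-neuronal genes 8 were lower, against 4.83% of all genes, and none was higher, with a median log2 difference of -0.73. This list stood at -0.15, -0.997 and -1.12 log2 units from the CI/CI mean in null-labelled embryos 1, 2 and 3. Stmn2, a tubulin regulator of growing axons, was at 15, 8.49 and 7 FPKM in null-labelled embryos and 14.4, 16.8 and 17.3 FPKM in CI/CI embryos (log2 difference -0.74, SE 0.26, adjusted p = 0.0784) and was not called, with embryo 1 inside the CI/CI range. Syt4, a vesicle protein, was at 2.58, 1.51 and 1.4 FPKM in null-labelled embryos and 3.31, 3.68 and 3.93 FPKM in CI/CI embryos. The Syt4 log2 difference was -1.004 (SE 0.22, adjusted p = 0.0201). The count of 8 was 1, 4 or 3 without CI/CI embryo 1, 2 or 3, and 26, 2 or 2 without null-labelled embryo 1, 2 or 3, so that it rested on which embryos were used.

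Of 28 sensory and autonomic ganglion genes 7 were lower, against 4.83% of all genes, with a median log2 difference of -0.88. Scn9a, a sodium channel of pain-sensing neurons, was at 0.709, 0.241 and 0.253 FPKM in null-labelled embryos and 0.957, 0.877 and 0.853 FPKM in CI/CI embryos. The Scn9a log2 difference was -1.11 (SE 0.33, adjusted p = 0.0485). The list stood at -0.36, -0.95 and -1.37 in null-labelled embryos 1, 2 and 3, and its count was 3, 3 or 3 without CI/CI embryo 1, 2 or 3, and 17, 3 or 4 without null-labelled embryo 1, 2 or 3.

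Hox genes, which set position along the body axis, differed more among null-labelled embryos than any other list described here. The list of 42 tested genes stood at 0.15, -0.95 and -1.84 log2 units from the CI/CI mean in embryos 1, 2 and 3, with a median difference of -1.04 for the group. Dnmt3b +/+ embryos stood at -0.58, -0.63 and -0.71 on the same scale, and in 15 of the 42 genes all 3 CI/CI embryos were above all 3 Dnmt3b +/+ embryos, against 7.71% of all genes. Hoxd8 and Hoxc10 were lower and Hoxd12 was higher, and these 2 and 1 of 42 lay near the 4.83% and 1.1% of all genes. Hoxc10 was at 3.34, 3.98 and 2.58 FPKM in null-labelled embryos, 5.67, 8.58 and 7 FPKM in CI/CI embryos and 8.04, 1.07 and 0.735 FPKM in Dnmt3b +/+ embryos. The Hoxc10 log2 difference was -1.08 (SE 0.20, adjusted p = 0.0115). Of the Dnmt3b +/+ embryos, 1 lay among the CI/CI values and 2 below every null-labelled value. With all 9 embryos in 1 model the adjusted p of Hoxc10 was 0.284. Without null-labelled embryo 1, 27 Hox genes were lower, and without any 1 of the others 0 to 2 were. The number of higher Hox genes was 4 without null-labelled embryo 1, 3 without CI/CI embryo 2 and 0 without any 1 of the others. The Hoxd8 call was lost without null-labelled embryo 2 or 3 or CI/CI embryo 1, 2 or 3 (adjusted p = 0.104 to 0.145), that of Hoxd12 without null-labelled embryo 2 or 3 or CI/CI embryo 1 or 3 (adjusted p = 0.0677 to 0.0834) and that of Hoxc10 without null-labelled embryo 3 or CI/CI embryo 2 or 3 (adjusted p = 0.0501 or log2 difference -0.93 to -0.92).

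Hepatocyte genes were lower in null-labelled embryos. Of 32 tested 20 were lower, against 4.83% of all genes, and none was higher, with a median log2 difference of -1.18. Alb was at 9.92, 19.15 and 9.67 FPKM in null-labelled embryos, 59.9, 42.1 and 56 FPKM in CI/CI embryos and 85.7, 0.103 and 43.7 FPKM in Dnmt3b +/+ embryos. The Alb log2 difference was -2.08 (SE 0.28, adjusted p = 0.00525). Ahsg, the plasma protein fetuin-A, was at 0.953, 1.5 and 0.987 FPKM in null-labelled embryos, 3.9, 5.83 and 4.68 FPKM in CI/CI embryos and 7.08, 0.0136 and 4.36 FPKM in Dnmt3b +/+ embryos. The Ahsg log2 difference was -1.98 (SE 0.21, adjusted p = 0.00279). Apoa1, the main apolipoprotein of high-density lipoprotein, was at 4.97, 8.79 and 3.99 FPKM in null-labelled embryos, 18, 17.7 and 17.4 FPKM in CI/CI embryos and 23.6, 0.0325 and 13.6 FPKM in Dnmt3b +/+ embryos. The Apoa1 log2 difference was -1.64 (SE 0.26, adjusted p = 0.00818). In all 3 genes null-labelled embryos were below CI/CI embryos, while Dnmt3b +/+ embryos ranged more widely, and embryo 2 of that genotype was almost without liver RNA. With all 9 embryos in 1 model, the adjusted p was 0.438 for Alb, 0.278 for Ahsg and 0.477 for Apoa1, so that none of the 3 was called. The count of 20 was 10, 12 or 8 without CI/CI embryo 1, 2 or 3, and 15, 28 or 12 without null-labelled embryo 1, 2 or 3. In the yolk sac endoderm list, which shares Apoc2 and Rbp4 with the liver, 5 of 19 were lower, against 4.83% of all genes, and 1, the receptor Lrp2, was higher, a call lost without null-labelled embryo 3 or CI/CI embryo 3 (log2 difference 0.94 to 0.995). Rbp4 was lost without null-labelled embryo 3 or CI/CI embryo 1, 2 or 3 (adjusted p = 0.0578 to 0.079). The count of 5 was 4, 4 or 2 without CI/CI embryo 1, 2 or 3. It was 5, 9 or 3 without null-labelled embryo 1, 2 or 3. With all 9 embryos in 1 model the lower genes Fabp1, Apoc2, Slc39a5, Spink1 and Rbp4 had adjusted p of 0.119 to 0.464, so that none of the 5 was called.

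Clustered protocadherins, cell surface proteins by which neurons recognise themselves, were lower in 2 of their 3 clusters. Of 55 tested, 25 were lower, against 4.83% of all genes, and none was higher, with a median log2 difference of -0.83. In the alpha cluster 12 of 13 were lower (median -1.15), in the beta cluster 13 of 21 (median -1.08) and in the gamma cluster 0 of 21 (median -0.32). Alpha genes share their constant exons, as do gamma genes, so that the values within each of these clusters are not independent, whereas each beta gene is a single exon of its own. Pcdhb20 was at 0.69, 0.39 and 0.346 FPKM in null-labelled embryos, 1.32, 1.72 and 1.61 FPKM in CI/CI embryos and 0.85, 1.18 and 0.931 FPKM in Dnmt3b +/+ embryos. The Pcdhb20 log2 difference was -1.56 (SE 0.23, adjusted p = 0.00689). Pcdha4 was at 1.86, 0.807 and 0.731 FPKM in null-labelled embryos, 2.46, 2.47 and 2.87 FPKM in CI/CI embryos and 1.67, 2.48 and 1.72 FPKM in Dnmt3b +/+ embryos. The Pcdha4 log2 difference was -1.24 (SE 0.32, adjusted p = 0.0311). All 55 differences were below 0, beside a median of -0.07 for all genes. In 11 of the 25 lower genes, and in 13 of the 21 beta genes, all 3 CI/CI embryos were above all 3 Dnmt3b +/+ embryos, against 7.71% of all genes. The list stood at -0.41, -0.93 and -1.04 in null-labelled embryos 1, 2 and 3. The count of 25 was 9, 10 or 8 without CI/CI embryo 1, 2 or 3, and 28, 10 or 9 without null-labelled embryo 1, 2 or 3, and it was 8 under quantile normalization and 0 with a pseudocount of 1 FPKM.

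Lens crystallins could hardly be compared, because CI/CI embryo 2 was almost without lens RNA. Of 14 tested 1 was lower, Cryba4, near the 4.83% of all genes, with a median log2 difference of -1.39. Cryba4 was at 0.209, 0.0561 and 0.0883 FPKM in null-labelled embryos, 1.75, 0.303 and 4.75 FPKM in CI/CI embryos and 3.31, 2.54 and 2.19 FPKM in Dnmt3b +/+ embryos (log2 difference -2.88, SE 0.85, adjusted p = 0.0464), and its call was lost without null-labelled embryo 2 or 3 or CI/CI embryo 1 or 3 (adjusted p = 0.106 to 0.13). Cryaa was at 5.69, 3.09 and 6.43 FPKM in null-labelled embryos, 16.4, 0.0175 and 42.9 FPKM in CI/CI embryos and 36.1, 19.5 and 21 FPKM in Dnmt3b +/+ embryos. The Cryaa log2 difference was 0.18 (SE 2.06, adjusted p = 0.954). Null-labelled embryos were below CI/CI embryos 1 and 3 in Cryaa and above CI/CI embryo 2. Without CI/CI embryo 2, 10 of the 14 crystallins were lower. Of 21 regulators of eye, lens and retina 3 were lower, Pitx3, Rlbp1 and Maf, and 2 higher, Otx2 and Sox1, beside 4.83% and 1.1% of all genes. The calls of Pitx3, Rlbp1 and Maf were each lost without CI/CI embryo 1, for Pitx3 at an adjusted p of 0.0608, for Rlbp1 of 0.0998 and for Maf of 0.0583, among other embryos.

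In the other lists few members or none passed, beside 1.1% of all genes higher and 4.83% lower. The lower counts of the macrophage, endothelial, interferon and imprinted lists lay near the share of all genes, and their members are named as a description. Without the fold threshold 14 of 27 macrophage, 8 of 30 endothelial, 5 of 20 interferon and 17 of 42 imprinted genes were lower, against 18.5% of all genes. Of 27 macrophage genes 2 were lower, Ctss and F13a1, of 30 endothelial genes 2, Lyve1 and Erg, and of 20 interferon response genes 1, Ifi27. Of these, Ctss was lost without null-labelled embryo 3 (log2 difference -0.99) and Lyve1 without null-labelled embryo 3 (log2 difference -0.99). Ifi27 was at 2.02, 1.72 and 1.51 FPKM in null-labelled embryos and 4.49, 3.45 and 6.33 FPKM in CI/CI embryos. Dnmt3b +/+ embryos held 1.73, 1.87 and 2.29 FPKM, overlapping null-labelled embryos and below every CI/CI embryo. The interferon list stood at -0.61, -0.48 and -0.62 log2 units from the CI/CI mean in null-labelled embryos. In Dnmt3b +/+ embryos it stood at -0.34, -0.59 and -0.44, and CI/CI embryo 3 was highest at 0.48. Pecam1, an endothelial adhesion protein, was at 4.69, 4.43 and 4.4 FPKM in null-labelled embryos and 5.55, 5.76 and 5.45 FPKM in CI/CI embryos. The Pecam1 log2 difference was -0.30 (SE 0.06, adjusted p = 0.0144). Of 42 imprinted genes 3 were lower, Dlk1, Airn and Nespas, and none was higher. Dlk1, a Notch-like protein of liver and muscle precursors, was at 28.7, 27.7 and 26.5 FPKM in null-labelled embryos, 70.2, 66.1 and 66 FPKM in CI/CI embryos and 58.9, 60 and 75.2 FPKM in Dnmt3b +/+ embryos. The Dlk1 log2 difference was -1.29 (SE 0.06, adjusted p = 0.000352). The Nespas call was lost without null-labelled embryo 2 or 3 or CI/CI embryo 1, 2 or 3 (adjusted p = 0.051 to 0.0694). Of 24 limb and tail genes 3 were higher, Msx1, Sall4 and Nkx1-2, and of 21 kidney and urogenital genes 2, Lhx9 and Wnt9b. In the kidney and urogenital list 12 of 21 differences were below 0, with a median of -0.47. None of its genes was lower with every embryo used, and 6 were without null-labelled embryo 1. Nkx1-2 was lost without null-labelled embryo 2 or CI/CI embryo 1, 2 or 3 (adjusted p = 0.055 to 0.0736), and Lhx9 without the embryos named above for it. None of 30 surface ectoderm genes and none of 5 trophoblast genes was higher or lower. For the lists with 0 calls, an adjusted p above the threshold or a fold under 2 does not show that the levels were alike.

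Among the most abundant genes, those higher in null-labelled embryos besides the globins and Rrm2 were Erdr1, the chromatin protein Hmgn2 and the ribosomal protein Rpl30. Hmgn2 was at 60.8, 60.9 and 60 FPKM in null-labelled embryos and 23.1, 25.4 and 24 FPKM in CI/CI embryos. The Hmgn2 log2 difference was 1.32 (SE 0.06, adjusted p = 0.000352). Erdr1 was at 167, 219 and 191 FPKM in null-labelled embryos and 46.7, 49.6 and 58.1 FPKM in CI/CI embryos. The Erdr1 log2 difference was 1.90 (SE 0.13, adjusted p = 0.00124). Reads of Hmgn2 and Rpl30 can be shared with processed copies elsewhere in the genome, which makes their values uncertain. On the lower side, besides the adult globins and collagens, stood Igfbp5, a binding protein of insulin-like growth factors, at 77.3, 58.9 and 57.6 FPKM in null-labelled embryos and 140.4, 137 and 130.2 FPKM in CI/CI embryos (log2 difference -1.08, SE 0.12, adjusted p = 0.00328), and Lgals1, galectin 1, at 72.9, 79.3 and 75.5 FPKM in null-labelled embryos and 161, 147 and 174 FPKM in CI/CI embryos. The Lgals1 log2 difference was -1.08 (SE 0.08, adjusted p = 0.00164).

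Over the 2 sets of called genes, the position of Dnmt3b +/+ embryos differed by direction. CI/CI embryos overlapped Dnmt3b +/+ embryos in 128 of 208 higher genes (61.5%) and in 752 of 914 lower genes (82.3%). They were all above Dnmt3b +/+ embryos in 41 higher genes (19.7%) and 156 lower genes (17.1%), against 7.71% of all genes. They were all below in 39 higher and 6 lower genes, against 5.51%. Every other gene overlapped, so overlap was the usual state over all genes tested and does not by itself show restored levels. Dnmt3b +/+ embryos in turn reached the null-labelled range in 33 higher genes (15.9%) and 205 lower genes (22.4%), and the share of all genes was not counted. The CI/CI values serve in each of these counts and in the calls, so they describe the called genes and are not a test.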

How the data were processed

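The authors isolated total RNA from whole embryos, sequenced it as paired-end reads, aligned trimmed reads to mm10 with STAR, kept alignments of high mapping quality and deposited linear FPKM values from SeqMonk. Strandedness and the annotation release are not given in the sources used here, and overlapping or antisense genes cannot be told apart. FPKM were not treated as counts. Reads were worked back from the FPKM of 96.0% of the genes for depth and for the floor of 3 reads. The main test was limma 3.58.1 in R 4.3.3 on log2(FPKM + 0.1), with the 6 embryos, genotype alone as a term and a trend on the mean level. In simulated data of 18940 genes, 99.5% of 200 planted log2 differences of 2 were called, with 5 other calls. The planted genes were well covered by reads, and the same spread between embryos was set for every gene. The simulation therefore does not describe calls near a fold of 2, genes with few reads or an embryo that stands apart. The genes and lists were chosen with earlier results of these data known. Named genes were the 12 highest and 12 lowest called differences, up to 6 called members of each list, the 6 most abundant called genes per direction, methyltransferases and genes the study names. Further genes, such as Sox9, Taf7l, Tdrd1, Myod1, Lmx1a and Dbx1, were chosen after their values were seen. The study counts 3 embryos of each genotype, litters are not given, and equal numbers did not pair the embryos. The p-values measure the spread between these embryos. Alternatives changed the pseudocount, filter, scaling, model and embryos used. Results for 1 gene were left out of the text.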

Additional observations from a re-analysis of the deposited data

How the results depend on the processing

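The counts of 208 higher and 914 lower genes became 100 and 486 with a minimum of 1 FPKM (12945 genes tested), 332 and 545 under quantile normalization, 55 and 196 with a pseudocount of 1 FPKM, and 1786 and 3496 without the fold threshold. Leaving out 1 embryo gave 163 to 267 higher and 590 to 1430 lower genes, with the most without null-labelled embryo 1 and the fewest lower genes without CI/CI embryo 1. Median-of-ratios scaling (217 and 883), all 9 embryos in 1 model (213 and 839), limma without a trend (203 and 864), limma-voom on worked-back reads (264 and 1363), no filter (173 and 690) and a pseudocount of 0.01 FPKM (276 and 1257) kept both counts within 1.5 times of the main ones. A term for sex left 163 and 613, the same as leaving out CI/CI embryo 3, since only that embryo was female. The embryo numbers did not pair the samples: same-numbered embryos of the 2 genotypes had deviations correlated at -0.10 on average, against 0.05 for other pairs, and the model with a replicate block gave 188 and 747. Of 131 called genes among those named, 50 were called under every alternative that kept the fold threshold, and none reversed. Genes below 3 reads per library cannot be compared, and p-values rest on 3 embryos a group.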
